A study of Caenorhabditis elegans with 12 samples.

Results

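Genes of the endoplasmic reticulum (ER) unfolded protein response were followed in whole Caenorhabditis elegans exposed to AO168=O, an aryl organophosphate ester that forms when a phosphite antioxidant of plastics is oxidised. The 9 genes were chosen by name, as ire-1, xbp-1, pek-1, atf-6, hsp-3, hsp-4, crt-1, pdi-2 and sel-1, among 46987 features in the count table. All 9 were found, and all 9 passed the filter on low counts that left 16665 genes for testing. The worms were of the wild-type N2 (Bristol) strain, were fed OP50 bacteria, and grew at 25 °C from the embryo for about 46 h to the fourth larval stage (L4). The 4 groups received no AO168=O (control) or 400, 2000 or 10000 ng per g of agar, and all 4 groups, controls included, were given 0.01% ethanol as the carrier. Each group had 3 libraries of poly(A) RNA, independent biological replicates per the series text, and each library came from a pool of about 1000 worms.

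The ER folds and modifies membrane and secreted proteins, and in the worm these include the collagens of the cuticle and the yolk proteins of the intestine. When unfolded proteins build up in the ER, transmembrane sensors pass the signal to the nucleus and the ribosome, which raises the output of chaperones, folding enzymes and degradation factors and slows translation. The unfolded protein response is therefore read from the transcripts of its targets, of which hsp-4 is the one most used in C. elegans. Activation of the IRE-1 branch also splices the xbp-1 transcript, a change that counts per gene do not show.

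Total counts ran from 36897811 to 47211800 per library, and the 9 genes held between 0.768% and 1.31% of them. These extremes were replicates 1 and 2 at 400 ng/g, the pair that also lay at opposite ends of the second principal component, at -65.1 and 40.7. The counts of genes past the threshold and the correlations among the 9 genes are also given without these libraries. Levels, spreads within groups and the r of other genes with hsp-3 or hsp-4 are given with all 12 libraries only. Of 28 marker genes for intestine, body wall muscle, hypodermis, neurons, pharynx and germ line, 27 were detected in every library, and the germ line gene nos-2 was at 0 counts in 1 library. All RNA came from whole animals, so that fewer cells of a type and less RNA per cell cannot be told apart in any value below. The median log2 fold change of all tested genes was -0.01 at 10000 ng/g, -0.02 at 2000 ng/g and 0.05 at 400 ng/g.

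The 4 sensors and transducers lie on 3 chromosomes (WBcel235 coordinates). The gene ire-1 (WBGene00002147, II, 8112243 to 8124910, minus strand) has 2 annotated transcripts and shares 4 exonic bases with unc-105 on the opposite strand, or 0.118% of its counted length. The gene xbp-1 (WBGene00006959, III, 4193809 to 4195358, plus strand) also has 2 transcripts. On the X chromosome, pek-1 (WBGene00003970, 11410176 to 11414887, minus strand) has a transcript of 12 exons, and atf-6 (WBGene00000222, 12480948 to 12484904, plus strand) one of 10 exons. The chaperone genes hsp-3 (WBGene00002007, X, 6089028 to 6092124, minus strand) and hsp-4 (WBGene00002008, II, 7350112 to 7352645, minus strand) each have 3 transcripts, and crt-1 (WBGene00000802, V, 6098992 to 6100542, minus strand) has 1 with 3 exons. The folding enzyme gene pdi-2 (WBGene00003963, X, 4524155 to 4526536, plus strand) has 2 transcripts. The degradation gene sel-1 (WBGene00004759, V, 12560732 to 12563383, plus strand) has 1 transcript of 6 exons. The genes crt-1 and smut-1 overlap by 92 exonic bases on opposite strands, or 6.57% of the counted length of crt-1, and smut-1 stood at 14.7 to 25.6 CPM, the count scaled to the library size with TMM factors. An 18-base overlap of pdi-2 with the noncoding gene C07A12.19 involves a gene with 28 counts in all 12 libraries. Whether counting used strand is not given in the sources used here. Since hsp-3 and hsp-4 encode closely related proteins, reads from stretches the genes share could have been assigned to either.

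Compared per length, in the deposited FPKM, the chaperone and folding enzyme genes and xbp-1 stood well above sel-1 and the sensor genes pek-1, ire-1 and atf-6. The highest mean over the 12 libraries was that of crt-1, at 1912 FPKM (range 1379 to 2760.1), followed by pdi-2 at 1618 FPKM (1025 to 2406). The next were hsp-3 at 818 FPKM (514 to 1274), hsp-4 at 659 FPKM (305 to 969.9) and xbp-1 at 419.8 FPKM (353 to 499). In the order of levels these 5 genes overlapped with their neighbours in range, although within a library crt-1 exceeded pdi-2 and pdi-2 exceeded hsp-3 in 12 of 12. The level of hsp-3 exceeded that of hsp-4, and that of hsp-4 exceeded xbp-1, in 11 of 12 libraries. Far below stood sel-1 at 65.8 FPKM (57.2 to 72.8), pek-1 at 33.4 FPKM (27.6 to 38.7), ire-1 at 23.6 FPKM (21.3 to 28.9) and atf-6 at 12.7 FPKM (8.65 to 17.6). Of these, pek-1 and ire-1 overlapped in range but pek-1 was the higher in 12 of 12 libraries, and the ranges of sel-1 and atf-6 overlapped no other. Among the 16665 tested genes ranked by mean FPKM, crt-1 was at rank 84 and hsp-4 at rank 210, while atf-6 was at rank 6620.

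No gene of the 9 passed an adjusted p of 0.05 at any dose against control in edgeR's quasi-likelihood test with Benjamini-Hochberg adjustment over all 16665 genes. At 10000 ng/g, 0.252% of all tested genes passed that threshold, and at 2000 and at 400 ng/g 0% did. By unadjusted p under 0.05, 2 of the 9 genes (ire-1 and atf-6) passed at 10000 ng/g, where 20.6% of all tested genes did. None passed by that measure at 2000 ng/g, with 5.15% of all genes, or at 400 ng/g, with 18.5%. When the 3 doses were tested together, 0 of 9 passed by adjusted or unadjusted p, beside 0.0840% and 17.6% of all genes, and the lowest adjusted p was 0.332, for ire-1. With 9 genes, a count of 0 beside these shares does not set them apart from all genes. The unadjusted 2 of 9 at 10000 ng/g was near the background.

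**Figure D1:**
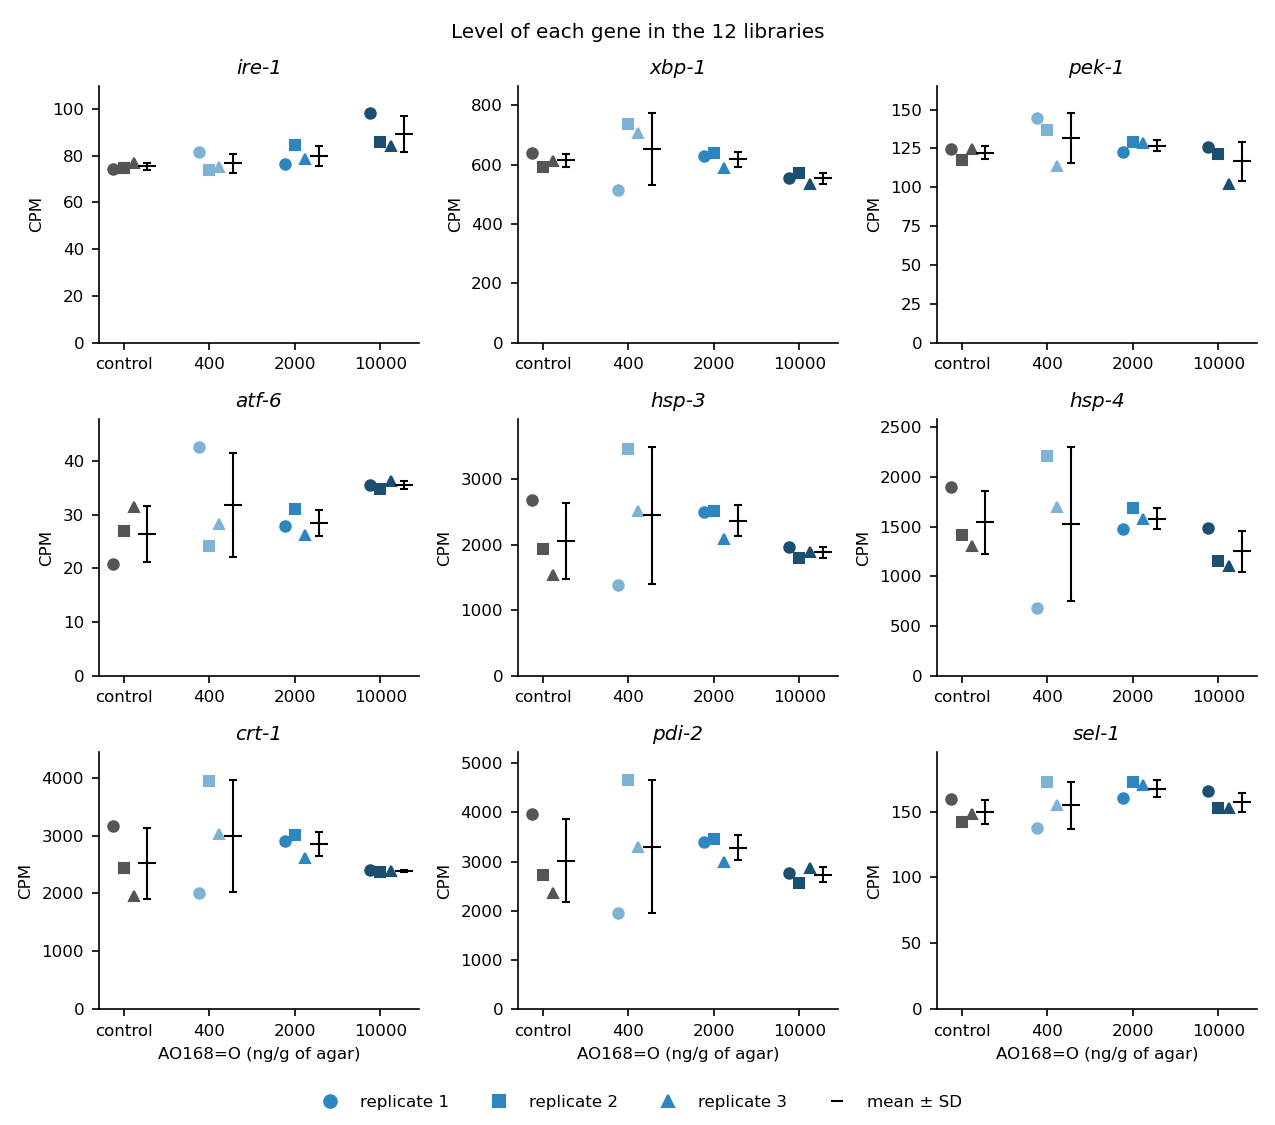
CPM (counts scaled to library size) of each of the 9 genes in each of the 12 libraries, by AO168=O dose in ng per g of agar, with symbols for the 3 replicates and the mean ± SD beside them. Replicates 1 and 2 at 400 ng/g lie far apart for hsp-3, hsp-4, crt-1 and pdi-2, while the 3 libraries at 10000 ng/g lie above the 3 controls for ire-1 and atf-6 and below them for xbp-1.

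Among the sensors, ire-1, which encodes the ER-membrane kinase and endoribonuclease that processes the xbp-1 transcript, had 74.5, 74.7 and 77.1 CPM in control worms, 81.5, 73.9 and 75.0 CPM at 400 ng/g, 76.5, 84.6 and 78.5 CPM at 2000 ng/g and 98.1, 85.8 and 84.2 CPM at 10000 ng/g. All 3 libraries at 10000 ng/g were above all 3 controls, which was so for 16.0% of all tested genes. The log2 fold change was 0.24 ± 0.0906 (SE) and the fold lay between 1.03 and 1.36 (95% interval), with an edgeR p of 0.0193 and an adjusted p of 0.172. A linear trend over the order of doses gave ire-1 a slope of 0.079 ± 0.0287 (SE) in log2 per dose step, with an edgeR p of 0.0174 and an adjusted p of 0.281. For that trend 0 of the 9 genes passed after adjustment and 1, ire-1, had an unadjusted p under 0.05, beside 0.114% and 13.8% of all tested genes. The opposite-strand neighbour unc-105 had 17.0 to 20.7 CPM at 10000 ng/g and 9.87 to 13.9 CPM in control worms (log2 fold change 0.55, edgeR adjusted p = 0.192), and its part in the reads of ire-1 was not tested.

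The transcription factor gene atf-6, whose product is held in the ER membrane and cut free under stress, had 20.9, 26.95 and 31.4 CPM in control worms, 42.6, 24.3 and 28.3 CPM at 400 ng/g, 27.9, 31.0 and 26.2 CPM at 2000 ng/g and 35.5, 34.8 and 36.2 CPM at 10000 ng/g. The 3 libraries at 10000 ng/g were the most alike of any group and again all above the controls, but the highest single library was replicate 1 at 400 ng/g. The log2 fold change at 10000 ng/g was 0.43 ± 0.194 (SE), a fold between 1.00 and 1.80 (95% interval), with an edgeR p of 0.0483 and an adjusted p of 0.240.

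The gene xbp-1, for the bZIP transcription factor downstream of IRE-1, had 637, 592 and 612 CPM in control worms, 514, 736 and 705 CPM at 400 ng/g, 627, 638 and 589 CPM at 2000 ng/g and 556, 571 and 533 CPM at 10000 ng/g. All 3 libraries at 10000 ng/g were below all 3 controls, as in 18.3% of all tested genes. The log2 fold change was -0.15 ± 0.130 (SE), a fold between 0.741 and 1.10 (95% interval), with an edgeR adjusted p of 0.526. The level of pek-1, for the PERK-type kinase that slows translation, ranged from 118 to 125 CPM in control worms, 114 to 144 CPM at 400 ng/g, 123 to 129.2 CPM at 2000 ng/g and 102 to 126 CPM at 10000 ng/g. These ranges overlapped at every dose, and the log2 fold change of pek-1 at 10000 ng/g was -0.07 ± 0.111 (SE; edgeR adjusted p = 0.750).

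Among the chaperones, hsp-4, one of the pair of worm genes for the Hsp70-type chaperone BiP and the usual reporter of the response, had 1903, 1420.0 and 1304 CPM in control worms, 685, 2208 and 1693 CPM at 400 ng/g, 1476, 1689.9 and 1579 CPM at 2000 ng/g and 1484, 1159 and 1108 CPM at 10000 ng/g. The lowest and the highest of the 12 libraries were both in the 400 ng/g group, and no dose stood clear of the controls. Its log2 fold change was -0.01 at 400 ng/g, 0.04 at 2000 ng/g and -0.30 ± 0.321 (SE) at 10000 ng/g, with edgeR adjusted p-values of 0.990, 0.993 and 0.609. The 95% intervals of its fold ran from 0.611 to 1.61, from 0.632 to 1.66 and from 0.499 to 1.32 at these doses in the same order, so a rise of hsp-4 above 1.66-fold lay outside all 3 intervals.

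The other BiP gene, hsp-3, had 2683, 1932 and 1540.3 CPM in control worms, 1380.1, 3464 and 2508 CPM at 400 ng/g, 2501, 2509 and 2092 CPM at 2000 ng/g and 1963, 1798 and 1889.7 CPM at 10000 ng/g. Each dose overlapped with the controls here too. The log2 fold change was 0.26 ± 0.281 (SE) at 400 ng/g, 0.21 ± 0.281 at 2000 ng/g and -0.12 ± 0.281 at 10000 ng/g, with edgeR adjusted p-values of 0.698, 0.925 and 0.826. At 400 ng/g the value of hsp-3 was 0.53 without replicate 1 of that group and -0.06 without replicate 2, and that of hsp-4 was 0.33 and -0.35 in the same order.

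The gene crt-1, for calreticulin, a calcium-binding lectin chaperone, had 3173, 2439.6 and 1953 CPM in control worms, 2001, 3944 and 3033 CPM at 400 ng/g, 2917, 3014 and 2617 CPM at 2000 ng/g and 2409, 2373 and 2388 CPM at 10000 ng/g. The 3 libraries at 10000 ng/g fell inside the range of the controls. Its log2 fold change was 0.25 at 400 ng/g, 0.18 at 2000 ng/g and -0.08 ± 0.227 (SE) at 10000 ng/g, with edgeR adjusted p-values of 0.634, 0.918 and 0.869. The gene pdi-2, for a protein disulfide isomerase that is also a subunit of the collagen prolyl hydroxylases, had 3967, 2716 and 2364 CPM in control worms, 1958, 4658 and 3294 CPM at 400 ng/g, 3395, 3452 and 2997 CPM at 2000 ng/g and 2766, 2567 and 2858 CPM at 10000 ng/g. As for crt-1, all 3 libraries at 10000 ng/g were within the range of the controls. The log2 fold change of pdi-2 was 0.13 at 400 ng/g, 0.12 at 2000 ng/g and -0.14 ± 0.269 (SE) at 10000 ng/g (edgeR adjusted p = 0.856, 0.960 and 0.787).

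The gene sel-1, for the adaptor of the ubiquitin ligase that marks misfolded ER proteins for the proteasome, had 159.6, 142 and 148 CPM in control worms, 137, 173 and 155 CPM at 400 ng/g, 160.2, 173 and 169.9 CPM at 2000 ng/g and 166, 153 and 153 CPM at 10000 ng/g. At 2000 ng/g all 3 libraries were above all 3 controls, the only one of the 9 genes in that comparison, beside 6.04% of all tested genes. The log2 fold change there was 0.16 ± 0.102 (SE), a fold between 0.959 and 1.30 (95% interval), with an edgeR p of 0.140 and an adjusted p of 0.855.

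**Figure D2:**
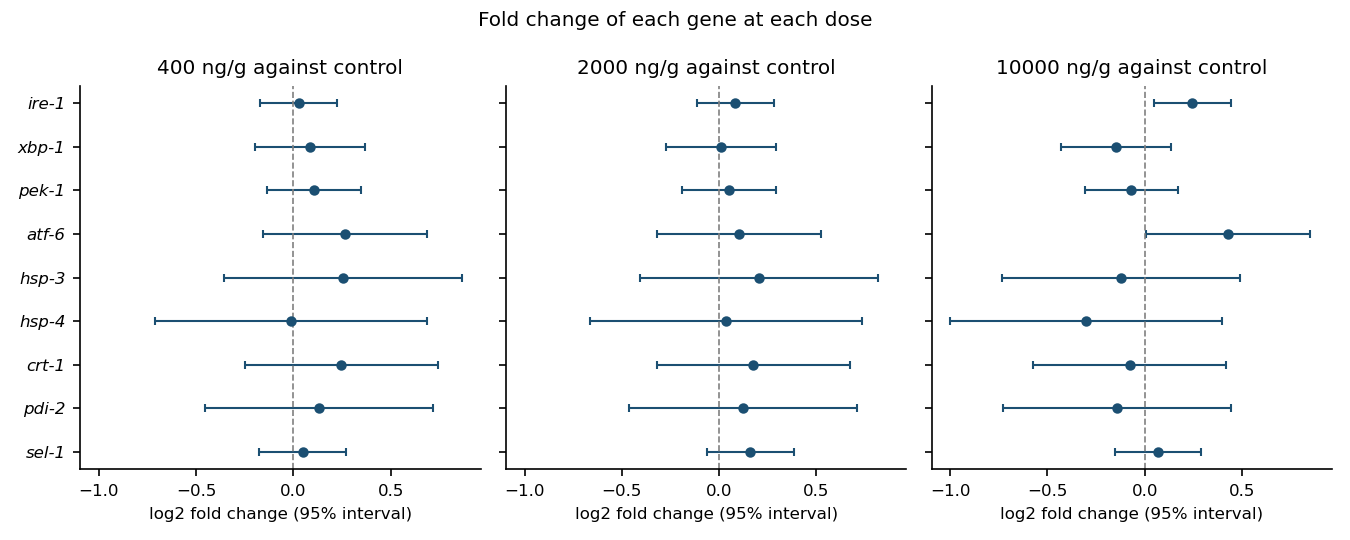
Log2 fold change of each of the 9 genes against control at 400, 2000 and 10000 ng/g, with the 95% interval from the edgeR fit; the dashed line marks no difference. At 10000 ng/g the intervals of ire-1 and atf-6 lie just above 0 before adjustment for the number of genes tested, and all other intervals span 0.

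Read by dose, the signs of the 9 genes differed, without any gene passing the test. At 2000 ng/g 9 of 9 log2 fold changes were positive with a median of 0.10, and at 400 ng/g 8 of 9 were, with a median of 0.11, though 0 of 9 stood clear of the controls there (20.4% of all tested genes did). At 10000 ng/g 3 of 9 were positive (ire-1, atf-6 and sel-1), with a median of -0.08. Positive values made up 56.97% of all tested genes at 400 ng/g, 45.6% at 2000 ng/g and 48.7% at 10000 ng/g. These comparisons share the 3 control libraries, and the control replicates themselves ran from 1540.3 to 2683 CPM for hsp-3. Nor are the 9 genes separate observations in such counts, since many were correlated over the 12 libraries, as given below. Without control replicate 1, the values of hsp-3, crt-1 and pdi-2 at 10000 ng/g were positive, at 0.14, 0.15 and 0.13 on the log2 scale, which made 6 of 9. Without replicate 2 at 400 ng/g, 5 of 9 were positive at that dose, and hsp-3, hsp-4, pdi-2 and sel-1 were negative. At 2000 ng/g, 7 of 9 were positive without control replicate 2 or without control replicate 3, and also without replicate 2 at 2000 ng/g, with hsp-4 negative each time. In the comparison of 10000 with 2000 ng/g, which uses no control library, atf-6 was above in all 3 libraries. There hsp-3, xbp-1, crt-1 and pdi-2 were below in all 3, or 5 of 9 genes, beside 28.1% of all tested genes that did not overlap in either direction. These 5 genes were correlated with each other, atf-6 negatively, so the 5 are not separate observations. By edgeR 0 of 9 passed between 10000 and 2000 ng/g by adjusted or by unadjusted p, beside 0.0480% and 10.2% of all tested genes. The lowest adjusted p was 0.541. Between 10000 and 400 ng/g, ire-1 was above in all 3 libraries, as were 6.71% of all tested genes. Its log2 fold change there was 0.22 ± 0.0906 (SE), with an edgeR p of 0.0329 and an adjusted p of 0.497. It was the only one of the 9 genes with an unadjusted p under 0.05 in that comparison, beside 9.50% of all tested genes, and 0 of 9 passed after adjustment, beside 0.0960%. Without replicate 1 at 400 ng/g, xbp-1 passed in that comparison, with a value of -0.37 on the log2 scale (edgeR adjusted p = 0.0339), against -0.24 with all libraries (adjusted p = 0.577). Between 2000 and 400 ng/g, 0 of 9 passed by adjusted or unadjusted p under 0.05, beside 0% and 9.26% of all tested genes.

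The genes differed widely in how far replicates of a group lay apart. The pooled within-group SD of log2 CPM was 0.48 for hsp-4, 0.40 for hsp-3, 0.376 for pdi-2 and 0.31 for crt-1, against a median of 0.263 over all tested genes. It was 0.265 for atf-6, 0.15 for xbp-1, 0.125 for pek-1, 0.103 for sel-1 and 0.081 for ire-1. Only 3.01% of all tested genes varied less within groups than ire-1, while hsp-4 was at the 75.9th percentile. Over the 4948 genes with a mean CPM at least as high as the lowest of the 9, the median was 0.165, and hsp-3, hsp-4, crt-1, pdi-2 and atf-6 were above it. Highest and lowest of the 12 libraries differed 3.22-fold for hsp-4, 2.51-fold for hsp-3, 2.38-fold for pdi-2 and 1.26-fold for sel-1. The highest library was replicate 2 at 400 ng/g for hsp-3, hsp-4, xbp-1, crt-1, pdi-2 and sel-1, and the lowest was replicate 1 at 400 ng/g for the same genes save crt-1, whose lowest was control replicate 3.

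**Figure D3:**
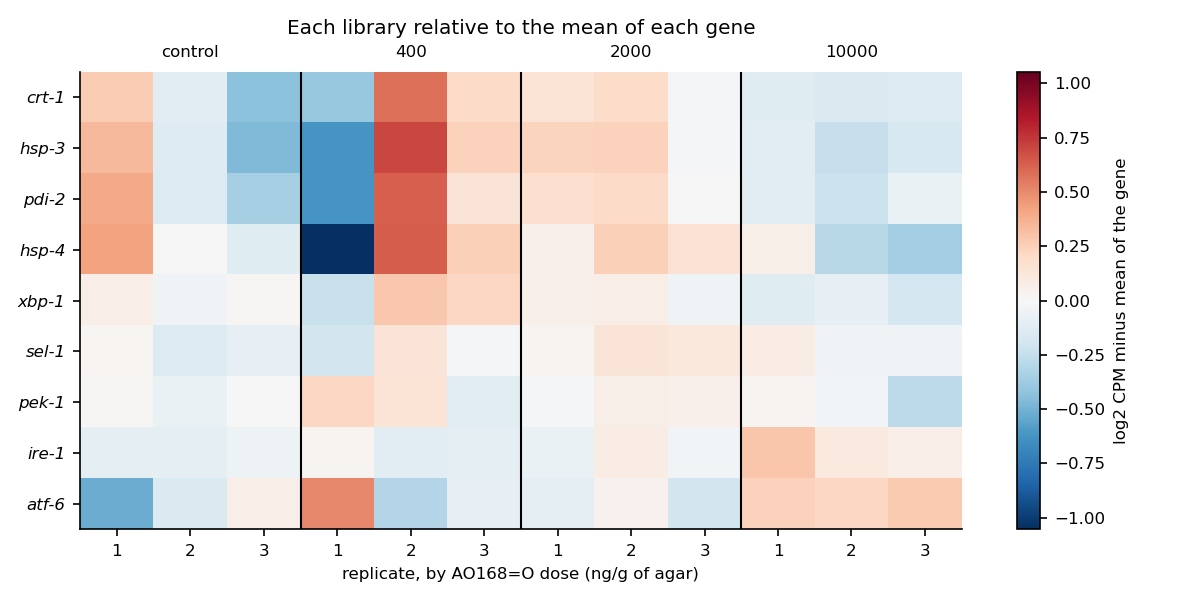
Log2 CPM of each gene in each library minus the mean of that gene over the 12 libraries (colour scale), with libraries ordered by dose in ng per g of agar and replicate. The chaperone genes share a column pattern, low in replicate 1 and high in replicate 2 at 400 ng/g, and atf-6 shows the reverse pattern in these 2 libraries.

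Much of this variation was shared. Over the 12 libraries, hsp-3, crt-1 and pdi-2 were correlated in log2 CPM with Pearson r of 0.967 to 0.990 and Spearman rho of 0.944 to 0.979. Each of these r had a permutation p of 1e-05, the smallest that 100000 resamples can give, and an adjusted p of 0.00012 over the 36 pairs of the 9 genes. The r of these 3 pairs was 0.986 to 0.993 after each group's mean was subtracted, and 0.966 to 0.991 without the 2 libraries farthest from the median. The pair hsp-3 and hsp-4 had r = 0.88 and rho = 0.94 (permutation adjusted p = 0.00137 for r and 0.00072 for rho), and r = 0.79 without the 2 farthest libraries. In total 20 of the 36 pairs passed an adjusted permutation p of 0.05 by Pearson r and 21 by Spearman rho. Among hsp-3, hsp-4, xbp-1, crt-1, pdi-2 and sel-1, 14 of 15 pairs passed by r, all positive. This set leaves out pek-1, ire-1 and atf-6, which lacked such correlations in the same libraries, so its count is no separate test. These counts have no share over all gene pairs beside them. The second principal component held 24.8% of the variance. The r with it was 0.94 for hsp-4, 0.89 for hsp-3 and pdi-2, 0.87 for xbp-1, 0.85 for crt-1 and 0.66 for sel-1. It was -0.92 for atf-6, -0.54 for ire-1 and 0.02 for pek-1. The part of this component in the correlations was not tested.

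The sensor genes atf-6, ire-1 and pek-1 did not share these positive correlations with the chaperones. Of the 8 pairs with atf-6, 5 passed with a negative r, of -0.84 with hsp-4 (permutation adjusted p = 0.00288), -0.79 with pdi-2, -0.75 with hsp-3, -0.73 with xbp-1 and -0.72 with crt-1. The r of atf-6 with ire-1 was positive, at 0.67 with rho 0.78 (permutation adjusted p = 0.0303 for r). After each group's mean was subtracted, it was 0.53, and r for the 5 negative pairs lay between -0.91 and -0.78, values with no test. For pek-1, r with the other 8 genes lay between -0.06 and 0.11, and 0 of 8 pairs passed by permutation. These values depended on the libraries used. The range for pek-1 was -0.17 to 0.76 (the highest with sel-1) without the 2 farthest libraries of each pair. It was -0.29 to 0.61 (the highest with ire-1) after each group's mean was subtracted, and -0.32 to 0.53 without replicates 1 and 2 at 400 ng/g. Without both replicates 1 and 2 at 400 ng/g, a choice made after the data were seen, 3 of 36 pairs passed by permutation over the 10 libraries left, those among hsp-3, crt-1 and pdi-2. The other 17 pairs that had passed kept their sign, with an absolute r of 0.496 to 0.790 and permutation adjusted p-values of 0.0561 to 0.229. Among them r was 0.79 for hsp-3 with hsp-4, -0.76 for hsp-4 with atf-6 and 0.73 for ire-1 with atf-6. Without replicate 1 alone, 12 passed. The libraries share whatever sets them apart as pools, and body wall muscle markers moved in the same way, with a mean log2 CPM of -0.47 in replicate 1 and 0.41 in replicate 2 at 400 ng/g relative to the control mean. Intestine markers stood at -0.34 and 0.15 in these libraries, and hypodermis markers at -0.21 and 0.11. The other marker sets did not change sign between these libraries, with neuron markers at 0.30 and 0.45, pharynx markers at 0.10 and 0.69 and germ line markers at -1.20 and -0.55. Against control, the marker sets at 10000 ng/g had medians (log2) of 0.34 for 5 neuron, 0.40 for 4 pharynx and -0.41 for 5 germ line markers, and 0.15, 0.03 and -0.08 for 5 intestine, 4 body wall muscle and 5 hypodermis markers. Their part in the correlations was not tested.

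**Figure D4:**
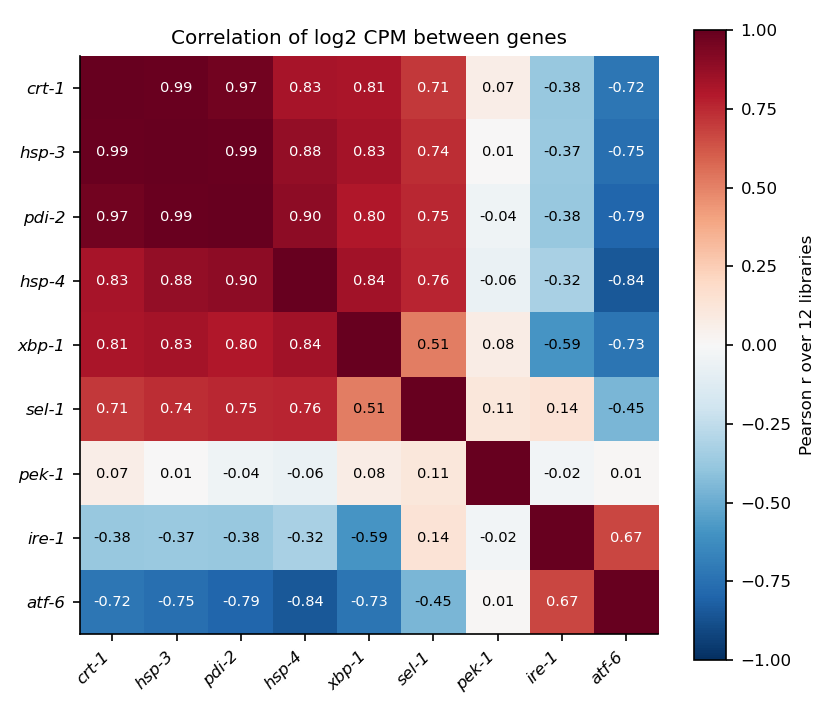
Pearson r of log2 CPM over the 12 libraries for each pair of the 9 genes, written in each cell and shown by colour. The folding factors crt-1, hsp-3, pdi-2 and hsp-4 have r of at least 0.827 with each other. The r of atf-6 is negative with them, and that of pek-1 with every gene is near 0 when all 12 libraries are used.

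Over the 12 libraries and the 10502 tested genes with a mean of at least 5 CPM, the genes most like hsp-3 in log2 CPM were pes-9 (r = 0.991), crt-1 (r = 0.990), srlf-1 (r = 0.989), mccc-1 for a methylcrotonyl-CoA carboxylase subunit (r = 0.988) and pdi-3 for another disulfide isomerase (r = 0.987). Hence 2 of the nearest 5 were ER folding genes. None of the 5 genes most like hsp-4 was one of the other 8 genes. These were cpn-3, a calponin gene (r = 0.964), ost-1 for the basement membrane protein SPARC (r = 0.962), F52B11.2 (r = 0.957), F07F6.4 (r = 0.956) and T06D8.9 (r = 0.950). They are the top of a ranking and carry no test.

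Genes of the ER were also read from lists by function, and 0 members of any list passed the edgeR threshold in any comparison. Most of these lists hold some of the 9 genes and are not independent of them. The chaperones include hsp-3, hsp-4 and crt-1, the oxidoreductases pdi-2 and the degradation genes sel-1. Of 15 ER chaperone genes, 4 had a positive log2 fold change at 10000 ng/g, with a median of -0.10, and 13 at 2000 ng/g, with a median of 0.09. Of 11 thiol oxidoreductase and prolyl hydroxylase genes, 3 were positive at 10000 ng/g (median -0.12) and 9 at 2000 ng/g (median 0.12). The 20 genes of ER-associated degradation had 3 positive values at 10000 ng/g and a median of -0.16, against 9 positive and a median of -0.01 at 2000 ng/g. The 19 genes of translocation, signal peptidase and N-glycosylation had 2 positive values at 10000 ng/g and a median of -0.19, against 14 positive and a median of 0.04 at 2000 ng/g. The list of 8 sensors and transducers adds atf-4, rtcb-1, gcn-1 and gcn-2 to ire-1, xbp-1, pek-1 and atf-6. It had 3 positive values and a median of -0.02 at 10000 ng/g, against 8 positive and a median of 0.10 at 2000 ng/g. At 400 ng/g the medians of these 5 lists lay between -0.01 and 0.11. Unadjusted p was under 0.05 at 10000 ng/g for 2 of 8 sensors and transducers, 2 of 15 chaperones and 1 of 11 oxidoreductases and hydroxylases. It was so for 1 of 20 degradation genes and 0 of 19 translocation genes, with 20.6% of all tested genes for comparison.

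The abu genes, named for their activation in worms whose unfolded protein response is blocked, had 2 of 11 tested members positive at 10000 ng/g (median -0.28) and 8 of 11 at 2000 ng/g (median 0.25). The furrow collagens, cargo of the ER in the hypodermis, had 0 of 6 positive at 10000 ng/g (median -0.27) and 1 of 6 at 2000 ng/g (median -0.09). Lists that mark the passage from larva to adult had negative medians at every dose. The median log2 fold change at 400, 2000 and 10000 ng/g was -0.96, -0.50 and -1.16 for 9 adult cuticle genes, -0.89, -0.33 and -0.71 for 14 oogenesis and eggshell genes, and -1.84, -0.94 and -1.33 for 29 major sperm protein genes. With edgeR 0 of these passed after adjustment, and an unadjusted p under 0.05 at 10000 ng/g was found for 5 of 9, 12 of 14 and 27 of 29, beside 20.6% of all tested genes. Their part in the levels of the 9 unfolded protein response genes was not tested.

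**Figure D5:**
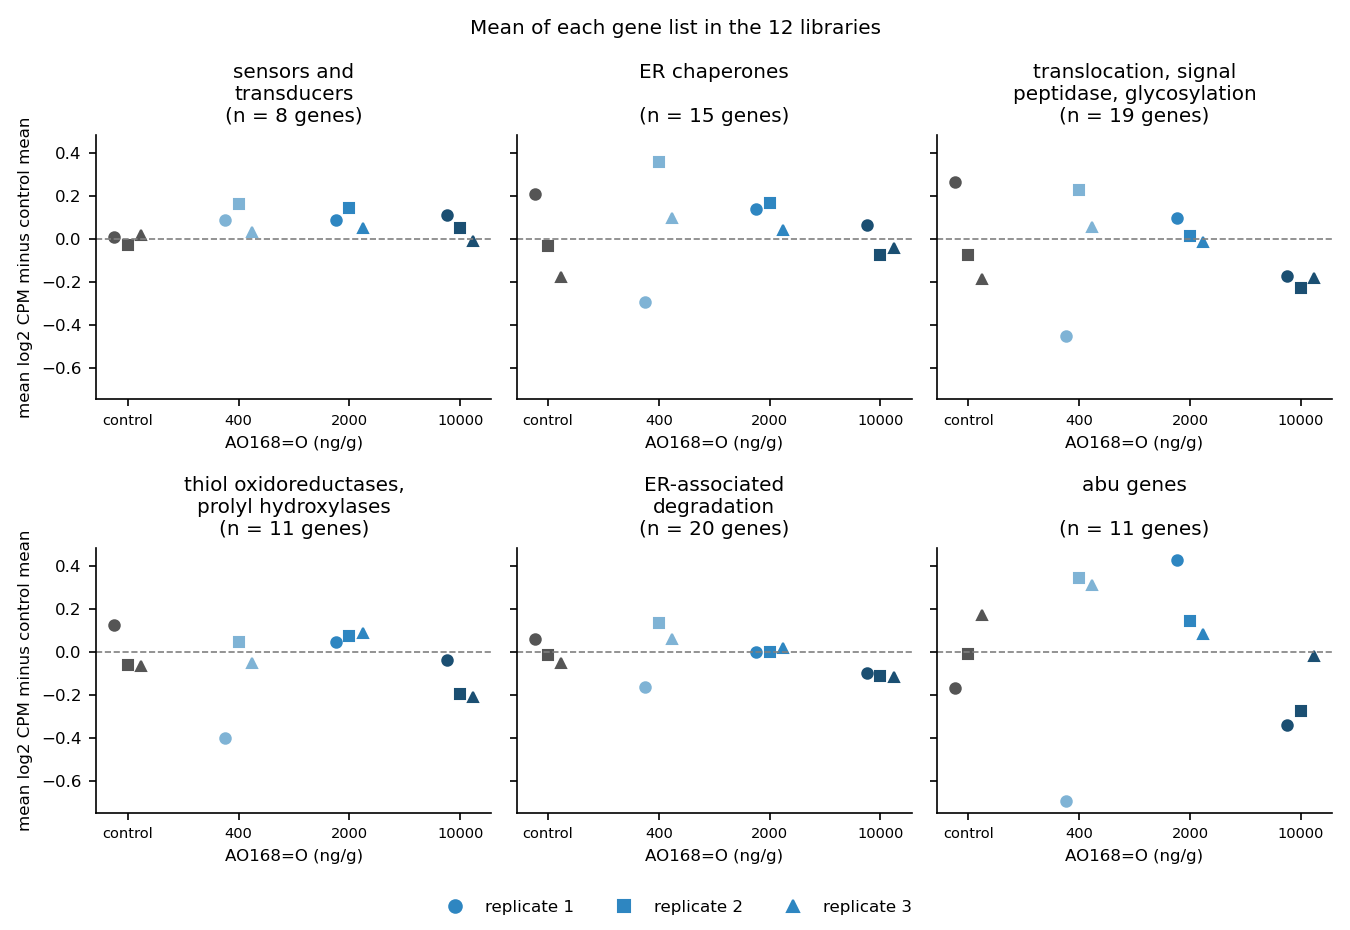
Mean log2 CPM of 6 lists of ER genes (sensors and transducers, chaperones, translocation and glycosylation, thiol oxidoreductases and prolyl hydroxylases, ER-associated degradation, abu genes) in each library minus the mean of the 3 controls, by AO168=O dose in ng per g of agar, with symbols for replicates. The 3 libraries at 10000 ng/g lie below 0 in 4 of the lists but not for the chaperones, with replicate 1 at 0.07, or the sensors, with replicates 1 and 2 at 0.11 and 0.05. Replicate 1 at 400 ng/g is the lowest library in 5 of the 6, the exception being the sensors.

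Single genes of these lists, named by their p in the test of any dose against control, were low-abundance factors for the most part. The thioredoxin-domain gene Y49E10.4 had 37.0 ± 3.79 CPM in control worms, 25.2 ± 1.503 CPM at 400 ng/g, 31.9 ± 7.30 CPM at 2000 ng/g and 24.1 ± 2.71 CPM at 10000 ng/g (SD, n = 3 each; edgeR adjusted p = 0.152). The J-domain gene dnj-28 had 24.1 ± 0.975, 17.1 ± 1.35, 20.2 ± 2.85 and 17.8 ± 2.42 CPM in the same groups (SD, n = 3 each; edgeR adjusted p = 0.173). Both were lower in all exposed groups by their means, without passing the edgeR threshold. For ubc-7, a ubiquitin-conjugating enzyme of ER-associated degradation, the means were 122, 119.8, 116 and 103 CPM (edgeR adjusted p = 0.259). For the prolyl hydroxylase gene phy-3 they were 2.80, 0.916, 2.16 and 1.65 CPM (edgeR adjusted p = 0.156). The adjusted p was 0.302 for the prolyl isomerase gene fkb-7, 0.198 for npl-4.1, 0.206 for uggt-2, 0.585 for the translocation gene dnj-29, and 0.237 and 0.253 for abu-13 and abu-12 by edgeR. The most abundant non-members by FPKM, cdc-48.1, trap-3 and abu-14, had edgeR adjusted p-values of 0.634, 0.680 and 0.538.

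The lists also differed in how closely they tracked hsp-3 over the 12 libraries. Leaving out the 9 genes themselves, r with hsp-3 was over 0.8 for 18 of 19 translocation and glycosylation genes (94.7%). The count was 8 of 12 chaperones (66.7%), 4 of 10 oxidoreductases and hydroxylases and 4 of 19 degradation genes. It was also over 0.8 for 4 of 11 abu genes, 1 of 4 sensors and transducers and 2 of 6 furrow collagens (median r 0.79). Of all tested genes, 8.55% had an r over 0.8. The exception among translocation and glycosylation genes was uggt-2, with r of -0.49. All 9 adult cuticle genes had a negative r with hsp-3, with a median of -0.54. So did 13 of 14 oogenesis and eggshell genes and 28 of 29 major sperm protein genes. Of the tested genes outside the 9, 9197 of 16656 had a negative r. These r describe the same 12 libraries, which differ in pool and in depth, and no test was run on them.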

How the data were processed

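The authors deposited raw read counts per gene, used for the tests, and FPKM per gene, used to compare levels between genes; the deposited tables also give a gene length. The submitters' processing notes name CASAVA, HISAT2 2.2.1, DESeq2 1.42.0 and featureCounts 2.0.6, without settings, and no source used here gives the build, the strand setting or the treatment of multiply mapped reads. Of 46987 features, 46926 had the coordinates of WBcel235 in Ensembl release 115, and 61 unnamed ones held 0.0167% to 0.0249% of counts. In each library FPKM equalled the count over length and a single constant.

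Counts were tested with edgeR 4.0.16 in R 4.3.3: TMM factors, the package's low-count filter, a quasi-likelihood fit of group means over all 12 libraries, and two-sided p-values adjusted by Benjamini-Hochberg over 16665 genes, at a threshold of 0.05. SE is the log2 fold change over the square root of F. The biological coefficient of variation was 24.1%. CPM uses TMM sizes; correlations use log2 CPM with a prior count of 2. In 12 of 12 replicate pairs the difference exceeded sampling noise.

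The genes, lists and tests were chosen with earlier results of these data known. All 9 genes were named, together with, per ER list, the 2 genes of smallest p in the test of any dose and the one of highest FPKM, and the 5 genes most like hsp-3 and hsp-4. Of 183 list names, 7 matched no gene. The steps were tested on simulated counts. The alternatives comprised a DESeq2 test, different scaling, no low-count filter, a replicate block, fits of only the groups compared, and leaving out libraries.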

Additional observations from a re-analysis of the deposited data

How the results depend on the processing

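The 9 genes stayed at 0 past the edgeR threshold against control at each dose under all 20 alternatives, with lowest adjusted p-values of 0.0859 at 10000 ng/g, 0.587 at 2000 ng/g and 0.124 at 400 ng/g; ire-1 ranged from 0.0861 to 0.433 and atf-6 from 0.0859 to 0.426 at 10000 ng/g, both positive throughout. Counts over all genes moved much more. At 10000 ng/g against control 42 genes passed, against 16 with library size alone, 1093 with DESeq2, 12 with the replicate block, 431 with only the groups compared, 517 without both replicates 1 and 2 at 400 ng/g (chosen after seeing the data), and 4 (without control replicate 1) to 523 (without 400 ng/g replicate 1) leaving out 1 library. At 2000 ng/g 0 passed, and 5 with DESeq2. At 400 ng/g 0 passed, against 930 without the filter, 1620 with DESeq2, 579 with the replicate block, and 0 to 903 leaving out 1 library (903 without 2000 ng/g replicate 3). For any dose the count was 14, against 49 without the filter, 1729 with DESeq2, 6 with the block, 32 without both 400 ng/g libraries and 0 to 184 leaving out 1 library. For the trend it was 19, against 8, 29, 358, 8 and 65 with library size alone, no filter, DESeq2, the block and without both, and 1 to 330 leaving out 1. For 10000 against 400 ng/g it was 16, against 6 with library size alone, 25 without the filter, 162 with DESeq2, 4 with the block, 0 with only the groups compared, 0 without both, and 0 to 740 leaving out 1; of the 9 genes, 0 to 1 passed there. For 10000 against 2000 ng/g it was 8, against 2, 134, 901 and 35 with library size alone, DESeq2, only the groups compared and without both, and 0 to 79 leaving out 1. For 2000 against 400 ng/g it was 0, and 12 with DESeq2. The causes were not tested. DESeq2 passed dnj-28, Y49E10.4, phy-3, ubc-7 and uggt-2 in the test of any dose (adjusted p = 0.0281, 0.0109, 0.00913, 0.0209 and 0.0441), edgeR passed abu-14 without 400 ng/g replicate 1 (adjusted p = 0.0493) and npl-4.1 without both (adjusted p = 0.0359). Leaving out 1 library turned the sign of small log2 fold changes. At 10000 ng/g the ranges were -0.29 to 0.14 for hsp-3, -0.13 to 0.042 for pek-1, -0.23 to 0.15 for crt-1 and -0.29 to 0.13 for pdi-2. Their positive values came without control replicate 1, except for pek-1, without 10000 ng/g replicate 3. At 2000 ng/g they were -0.072 to 0.24 for hsp-4, -0.016 to 0.060 for xbp-1, -0.017 to 0.25 for atf-6 and -0.027 to 0.39 for pdi-2. Signs turned there without control replicate 1 for atf-6, without control replicate 2, control replicate 3 or 2000 ng/g replicate 2 for hsp-4, without control replicate 2 or 2000 ng/g replicate 1 or 2 for xbp-1, and without control replicate 3 for pdi-2. At 400 ng/g they were -0.059 to 0.53 for hsp-3, -0.35 to 0.33 for hsp-4, -0.022 to 0.075 for ire-1, -0.010 to 0.45 for atf-6, -0.18 to 0.39 for pdi-2 and -0.016 to 0.12 for sel-1. Signs turned without 400 ng/g replicate 1 for hsp-4, ire-1 and atf-6, without 400 ng/g replicate 2 for hsp-3, pdi-2 and sel-1, and also without control replicate 1 for hsp-4 and control replicate 3 for pdi-2. Without both 400 ng/g libraries hsp-4 had 0.13, ire-1 -0.0079 and pek-1 -0.10. The count of correlated pairs was 20, with 12 to 20 leaving out 1 library and 3 without both. The deviations of same-numbered libraries had r of -0.47 to 0.34 over 18 pairs, 5 of them over 0.1. Of 12 libraries, 3 correlated best with their own number. For replicates 1, 2 and 3, r was 0.14, 0.15 and 0.34 between control and 2000 ng/g. It was -0.15, -0.14 and -0.31 between 400 and 10000 ng/g, and -0.10, -0.21 and -0.30 between 2000 and 10000 ng/g. A pairing by replicate number was not tested beyond these values and the replicate block. With 3 libraries a group, the 95% interval of the fold of hsp-3 at 400 ng/g reached 1.83, the highest upper bound of the 9 genes against control.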

Other observations

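The balance between the worm's BiP genes is given as a description, since this ratio was chosen after its values were seen. The FPKM ratio of hsp-4 to hsp-3 was 0.847, 0.878 and 1.01 in control worms, 0.593, 0.761 and 0.807 at 400 ng/g, 0.705, 0.805 and 0.901 at 2000 ng/g and 0.903, 0.7699 and 0.7004 at 10000 ng/g. All 3 libraries at 400 ng/g were below all 3 controls, and the other doses overlapped with them. In 11 of 12 libraries hsp-3 was the higher of the pair, and the exception was control replicate 3.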
